A study of Mus musculus with 24 samples.

Results

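Fibroblasts with a mutant glucocorticoid receptor (GR) were set against wild-type fibroblasts after both had received bacterial lipopolysaccharide (LPS) and no added glucocorticoid. The comparison holds 6 of the 24 libraries of the series, chosen by title: 3 of GR Zn/Zn mouse embryonic fibroblasts with LPS and 3 of wild-type mouse embryonic fibroblasts with LPS. The labels of the mutant also carry the name C437G. Both groups came from male C57BL/6 embryos of day 13.5 whose head, heart and liver had been removed. Cells of both groups had 7 days of culture in medium with serum, then 16 h of ethanol vehicle and 6 h of LPS at 100 ng/ul. A further 3 mutant and 3 wild-type libraries with ethanol vehicle alone gave the levels without LPS. Whether each replicate was its own embryo or culture is not stated, and the p-values then cover no more than the library-to-library spread, which may be technical. An effect of the embryo or culture cannot be told apart from that of the genotype.

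LPS is bound by CD14 and the TLR4 complex, which signals through the adaptor MyD88 to NF-kB and AP-1 and through TRIF to interferon regulatory factors. The interferon made in this way acts back on the cells through its receptor and switches on interferon-stimulated genes. GR is a nuclear receptor whose zinc fingers read DNA, and with hormone bound it raises genes such as Fkbp5 and Tsc22d3 and holds down many NF-kB targets. Fibroblasts are known to answer LPS with chemokines, colony-stimulating factors, matrix proteases and prostaglandin enzymes.

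The start sites of 5 genes that carry the main results are shown first, from RefSeq on GRCm38.p6, written 5′ to 3′ along the gene, 250 bases before the start and 50 after it. Tnfaip3 has 2 such windows, for different start sites, and only the first is shown. Cxcl1 and Tnfaip3 are NF-kB targets whose LPS effect differed between the genotypes, and capitals mark matches to a form of the NF-kB site, GGG and TTTCC with any 2 bases between, on either strand.

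Cxcl1, chr5:90890995-90891294, plus strand: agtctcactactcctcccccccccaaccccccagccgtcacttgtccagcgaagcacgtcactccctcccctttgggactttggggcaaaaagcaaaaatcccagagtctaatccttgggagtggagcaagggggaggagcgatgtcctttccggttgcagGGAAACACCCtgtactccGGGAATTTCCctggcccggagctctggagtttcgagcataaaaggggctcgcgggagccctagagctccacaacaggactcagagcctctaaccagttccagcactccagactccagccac

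Tnfaip3, chr10:19015361-19015660, minus strand: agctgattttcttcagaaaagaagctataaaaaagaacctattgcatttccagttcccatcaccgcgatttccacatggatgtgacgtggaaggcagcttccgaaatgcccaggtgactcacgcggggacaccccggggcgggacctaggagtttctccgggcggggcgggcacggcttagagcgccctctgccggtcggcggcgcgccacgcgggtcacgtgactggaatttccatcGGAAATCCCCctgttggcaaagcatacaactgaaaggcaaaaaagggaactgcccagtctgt

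Cxcl10 and Isg15 are interferon-stimulated genes that were higher in the mutant with LPS, and Irgm1 is one that was not. Capitals mark matches to the interferon-stimulated response element, 2 copies of GAAA with any 2 bases between, on either strand, which overlap each other in Isg15 and Irgm1.

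Cxcl10, chr5:92348840-92349139, minus strand: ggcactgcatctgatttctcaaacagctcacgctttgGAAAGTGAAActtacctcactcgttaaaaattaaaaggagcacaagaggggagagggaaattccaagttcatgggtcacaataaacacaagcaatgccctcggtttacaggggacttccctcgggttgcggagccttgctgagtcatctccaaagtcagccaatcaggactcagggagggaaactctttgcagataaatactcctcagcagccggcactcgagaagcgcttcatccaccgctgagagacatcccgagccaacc

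Isg15, chr4:156200769-156201068, minus strand: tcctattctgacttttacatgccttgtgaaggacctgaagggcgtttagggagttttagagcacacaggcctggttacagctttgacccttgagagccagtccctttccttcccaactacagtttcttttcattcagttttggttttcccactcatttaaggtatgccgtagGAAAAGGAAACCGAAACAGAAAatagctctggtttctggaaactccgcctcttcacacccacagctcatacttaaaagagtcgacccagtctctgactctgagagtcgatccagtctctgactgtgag

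Irgm1, chr11:48871371-48871670, minus strand: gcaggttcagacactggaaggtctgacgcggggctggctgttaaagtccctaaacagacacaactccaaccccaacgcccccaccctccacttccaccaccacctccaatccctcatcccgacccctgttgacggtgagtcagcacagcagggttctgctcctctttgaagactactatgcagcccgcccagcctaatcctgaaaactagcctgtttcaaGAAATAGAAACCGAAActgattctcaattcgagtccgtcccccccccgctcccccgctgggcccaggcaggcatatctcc

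The 6 libraries held 18.9 to 43.9 M counted reads, and 3 reads, the limit that a count of 0 allows, equal 0.0683 to 0.159 CPM in them, where CPM is counts per 1000000 reads of the scaled library. Mutant replicate 2 stood apart, with 43.9 M reads against 18.9 to 25.5 M in the other 5 libraries. Its reads differed from mutant replicates 1 and 3 with a chi-square per degree of freedom of 8.78 and 10.2, against 2.71 between replicates 1 and 3 and 1.96 to 2.49 between wild-type libraries. It also held the most liver RNA, 86.6 CPM of the albumin gene Alb against 43.4 and 14.3 CPM in mutant replicates 1 and 3 and 19.4, 22.3 and 0.0544 CPM in wild type. Calls of named genes that change without it, and the fold changes of Folh1, Kcna5 and Ackr4, are given both ways. Counts per gene list are from all libraries unless stated, and several moved without it. For example, 14 in place of 16 interferon regulatory and STAT factors were then higher, and 4 in place of 6 skeletal muscle markers were lower. Fibroblast markers summed to 34102 to 35520 CPM in mutant and 33972 to 34206 CPM in wild-type libraries with LPS, so markers of the labelled cell type were abundant in both groups.

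With LPS, the genotypes differed in a large part of the transcriptome, mostly by modest amounts. Of 15221 tested genes, 1918 were higher in the mutant (12.6%) and 1813 were lower (11.9%) by edgeR's quasi-likelihood test at a Benjamini-Hochberg adjusted p below 0.05. The median size of the called differences was 1.39-fold, and 368 genes were at least 2-fold higher (2.42%) and 369 at least 2-fold lower (2.42%). Without mutant replicate 2, 1396 were higher (9.04%) and 1474 lower (9.55%), and 2764 of the 3731 calls were kept in the same direction. The median log2 fold change over all tested genes was 0.0104. Many of the calls were also present without LPS: in vehicle, from 6 other libraries, 2861 genes differed between the genotypes (18.8%), 1322 higher (8.69%) and 1539 lower (10.1%). Of the LPS calls 55.9% were among them, which is 72.9% of the vehicle calls, and 2080 of these 2086 shared genes had the same direction. The log2 fold changes with LPS and in vehicle had a Pearson correlation of 0.695 across the tested genes, which are not independent replicates.

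The 3 marker genes of LPS-treated cells were strongly expressed in both genotypes and each was higher in the mutant. Ccl2, the chemokine that draws monocytes (chr11:82035571-82037453), had 2040, 1789 and 1955 CPM in mutant and 1464, 1453 and 1468 CPM in wild-type libraries with LPS. The groups did not overlap, as was so for 7430 of the 15221 tested genes (48.8%), and the log2 fold change was 0.40 (SE 0.08, edgeR adjusted p = 0.000503). In vehicle, Ccl2 had 65.9, 73.6 and 71.1 CPM in mutant and 33.0, 35.2 and 35.8 CPM in wild-type libraries, a log2 fold change of 1.01. LPS raised Ccl2 27.5-fold in the mutant and 42.1-fold in wild type. Il1rl1, the receptor of interleukin 33 (chr1:40429570-40465415), had 1747, 1837 and 1799 CPM in mutant and 965, 985 and 994 CPM in wild-type libraries with LPS. All mutant values lay above all wild-type values, by 0.87 on the log2 scale (SE 0.08, edgeR adjusted p = 2.24e-08), and the difference in vehicle was of like size, at 1.07. Tnfaip3, which encodes the NF-kB brake A20 (chr10:19000910-19015657), had 212, 204 and 210 CPM in mutant and 177, 179 and 182 CPM in wild-type libraries with LPS. The difference was small, 0.22 on the log2 scale (SE 0.07, edgeR adjusted p = 0.0246), and it missed the threshold whenever any 1 of the 6 libraries was left out, with adjusted p up to 0.0997. In vehicle, Tnfaip3 was lower in the mutant, with 7.80, 7.09 and 8.36 CPM against 15.8, 14.0 and 13.3 CPM in wild-type libraries.

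**Figure D1:**
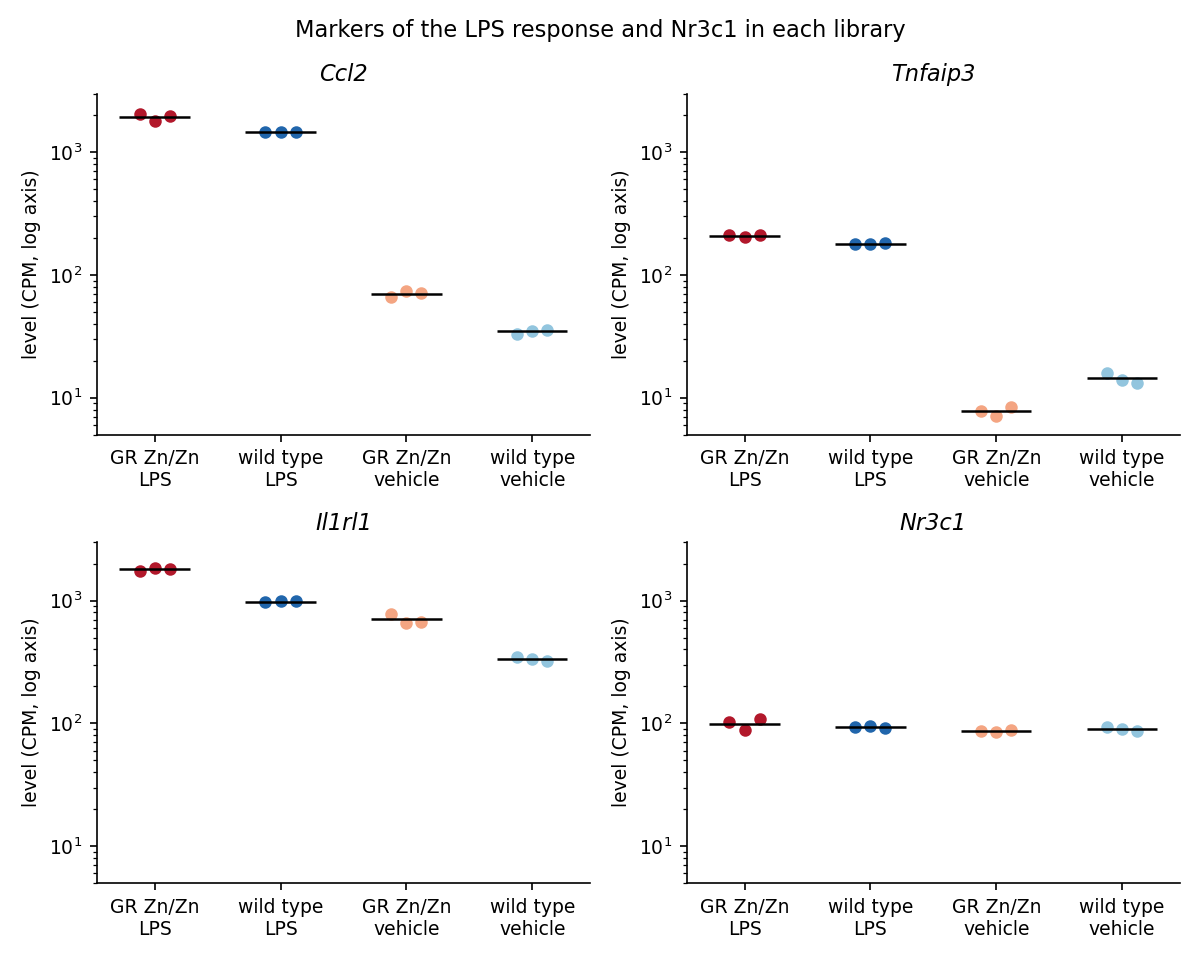
Levels of Ccl2, Tnfaip3, Il1rl1 and Nr3c1 in CPM on a log axis, 1 point per library and a line at each mean, for the mutant and wild type with LPS and then in vehicle. The 3 mutant libraries with LPS sit above the 3 wild-type libraries with LPS for Ccl2, Tnfaip3 and Il1rl1, and the groups overlap for Nr3c1.

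The mutated gene itself did not differ detectably. Nr3c1, which encodes GR (chr18:39410545-39519421), had 102, 87.7 and 109 CPM in mutant and 92.9, 96.1 and 91.5 CPM in wild-type libraries with LPS. These values overlap, with a log2 fold change of 0.09 (SE 0.12, edgeR adjusted p = 0.650). Without the 5 libraries that stand apart in the series, mutant replicate 2 among them, the value was 0.17 and was called higher. The others of these 5 lie outside this comparison. Leaving out mutant replicate 2 alone gave 0.17 as well, and it was not called (edgeR adjusted p = 0.454). Nor was Nr3c1 called with any other 1 of the 6 libraries left out, at edgeR adjusted p up to 0.957. A base change inside the gene leaves no trace in counts per gene, so this level does not check the genotype label.

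Genes that LPS induces were higher in the mutant more often than the tested genes as a whole. The class was drawn from other libraries, those given 1 uM of the glucocorticoid dexamethasone (Dex), with and without LPS: 594 genes were raised at least 2-fold by LPS there, averaged over both genotypes. Of these, 326 were higher in the mutant with LPS (54.9%) and 41 were lower (6.90%), beside 12.6% and 11.9% over all tested genes. In the libraries that chose the class, 524 of the 594 genes lay above wild type in the mutant with Dex and LPS, so genes could enter mainly through the mutant, and the counts carry that choice. With the class drawn from the wild-type Dex libraries alone, an alternative added after the data were seen, it held 426 genes, of which 245 were higher in the mutant with LPS (57.5%) and 33 were lower (7.75%). For the 594 genes the median log2 fold change was 0.563 with LPS and 0.204 in vehicle, where 139 were higher and 56 lower. Without mutant replicate 2, 301 were higher and 35 lower. Of the 294 genes that LPS lowered at least 2-fold in the Dex libraries, 77 were lower in the mutant with LPS (26.2%) and 38 were higher (12.9%), with a median of -0.215. In vehicle 53 of these 294 genes were lower and 73 were higher, with a median of 0.0223. The lowered class was also drawn from the average over both genotypes, so genes could enter it mainly through the mutant. It was not drawn from wild type alone, so the part of that choice in these counts was not tested. Among the 14333 other tested genes 10.8% were higher and 11.8% lower with LPS.

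**Figure D2:**
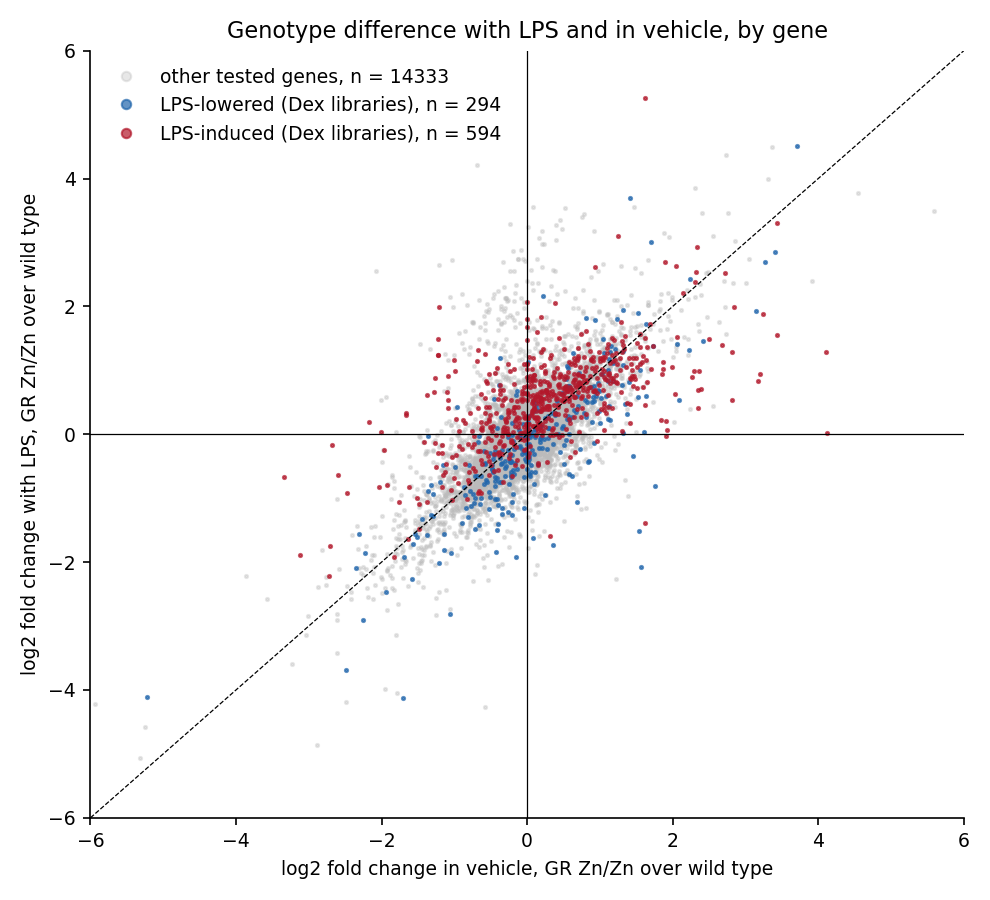
Each tested gene's log2 fold change of mutant over wild type with LPS (vertical axis) against that in vehicle (horizontal axis), with the 594 LPS-induced and 294 LPS-lowered genes of the Dex libraries in colour and a dashed line at equal values. LPS-induced genes lie mostly above 0 on the vertical axis, with a median of 0.563.

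RNA of macrophage and leukocyte markers, taken as a list, was also more abundant in the mutant cultures. Of 18 tested markers of these cells 15 were higher in the mutant with LPS, none was lower, and the median log2 fold change was 1.09. Over all tested genes 12.6% were higher and 11.9% lower. Their summed level was 210 to 223 CPM in mutant and 100 to 104 CPM in wild-type libraries with LPS. In vehicle the sum was 247 to 254 CPM in mutant and 112 to 116 CPM in wild-type libraries, so that the gap was present before LPS. Lyz2, the lysozyme of macrophages, had 92.6, 87.6 and 86.8 CPM in mutant and 42.8, 41.1 and 39.7 CPM in wild-type libraries with LPS. Csf1r, the macrophage receptor for CSF1, had 16.6, 16.5 and 15.7 CPM in mutant and 6.90, 7.00 and 8.26 CPM in wild-type libraries. For both genes every mutant library was above every wild-type one. In 48.8% of all tested genes the groups did not overlap, in 1 direction or the other. The T-cell marker Cd3e had 0 reads in the 6 libraries, and the B-cell marker Cd79a had 22 reads. In RNA of whole cultures, more cells of a type and more RNA per cell cannot be told apart. The part of these cells in the inflammatory results was not tested.

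**Figure D3:**
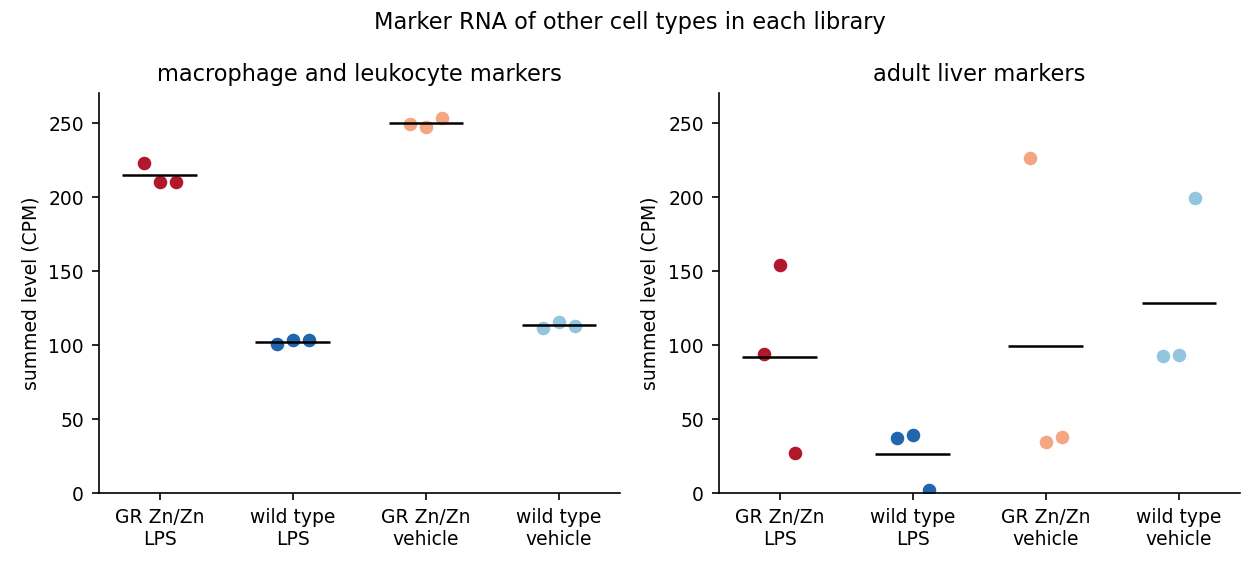
Summed level in CPM of the macrophage and leukocyte markers (left) and the adult liver markers (right) in each library, with a line at each mean, for the mutant and wild type with LPS and then in vehicle. The macrophage sum was 210 to 223 CPM in mutant and 100 to 104 CPM in wild-type libraries with LPS, and the liver sum varied from library to library within groups.

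At the entry of the pathway the share of genes called was near that of all tested genes, though single genes differed. Of 17 tested genes of the TLR4 complex and its adaptors 4 were higher in the mutant and 1 was lower, with a median of 0.00, where 24.5% of all tested genes were called either way. Tlr4 itself, named after its values were seen, had 14.4, 12.4 and 12.8 CPM in mutant and 13.9, 14.6 and 14.9 CPM in wild-type libraries with LPS, which overlap. The LPS co-receptor Cd14 averaged 27.9 ± 0.89 CPM in mutant and 15.1 ± 0.68 CPM in wild-type libraries (SD, n = 3 each), and it is also a monocyte gene. The adaptor Myd88 averaged 68.5 ± 2.3 CPM in mutant and 47.7 ± 1.4 CPM in wild-type libraries. The inhibitory kinase relative Irak3 was 1.70-fold higher, and the kinase Irak2 was 1.41-fold lower, in the mutant.

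Many NF-kB genes were higher in the mutant with LPS. Of 18 subunits and feedback inhibitors 11 were higher with LPS and none was lower, beside 12.6% and 11.9% of all tested genes. In vehicle 2 were higher and 1 was lower, beside 8.69% and 10.1%. The test of the difference between the treatments called 5 of the 18, as given at the end. The medians were 0.341 with LPS and 0.0560 in vehicle. Nfkb1, the p50 subunit precursor, had 396, 411 and 393 CPM in mutant and 273, 269 and 271 CPM in wild-type libraries with LPS. Nfkb2, the p52 precursor, had 288, 297 and 292 CPM in mutant and 195, 187 and 198 CPM in wild-type libraries. Neither gene's groups overlapped, as was so for 48.8% of all tested genes. The log2 fold changes were 0.56 and 0.60 (SE 0.04 and 0.07). Inhibitors were among the higher genes: Nfkbia, named after its values were seen, was 1.29-fold higher and Tnip1, a partner of A20, was 1.43-fold higher. Macrophage marker RNA was higher in the same libraries, at 210 to 223 CPM in mutant and 100 to 104 CPM in wild type, and its part here was not tested.

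Chemokines were mostly higher in the mutant. Of 13 CC chemokines 8 were higher and 2 lower with LPS, and in vehicle 6 were higher and 1 lower. Of 12 CXC and CX3C chemokines 9 were higher and 1 lower with LPS, and in vehicle 5 were higher and 1 lower. The CC median was 0.657 with LPS and 0.900 in vehicle, and the CXC and CX3C median was 0.984 and 0.585. Over all tested genes 12.6% were higher and 11.9% lower with LPS, and 8.69% and 10.1% in vehicle. Cxcl5, a neutrophil attractant, had 819, 660 and 812 CPM in mutant and 205, 196 and 221 CPM in wild-type libraries with LPS. It was 3.69-fold higher (log2 1.88, SE 0.09, edgeR adjusted p = 5.02e-13). No mutant library overlapped wild type, as was so for 48.8% of all tested genes. Cxcl10, an interferon-induced attractant of T cells, had 803, 673 and 781 CPM in mutant and 340, 312 and 331 CPM in wild-type libraries with LPS. The gap with LPS was 2.30-fold, while in vehicle Cxcl10 averaged 1.14 CPM in mutant and 1.09 CPM in wild-type libraries and was not called (log2 0.08). The test of the change between vehicle and LPS gave an edgeR adjusted p of 0.162 for Cxcl10, which misses the threshold. Ccl11, the eosinophil attractant eotaxin, averaged 17.9 ± 0.85 CPM in mutant and 2.91 ± 0.66 CPM in wild-type libraries with LPS. Ccl3 and Ccl4, made in quantity by macrophages, were 2.07-fold and 2.21-fold higher in the mutant. The macrophage marker sum stood at 210 to 223 CPM in mutant and 100 to 104 CPM in wild-type libraries, and its part in the chemokine levels was not tested.

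Exceptions were Cxcl12, Ccl20 and Ccl17. Cxcl12, a homeostatic chemokine of stromal cells, had 201, 202 and 200 CPM in mutant and 472, 478 and 474 CPM in wild-type libraries with LPS, with a like difference in vehicle (log2 -1.24 and -1.12). Ccl20 averaged 162 ± 3.4 CPM in mutant and 219 ± 8.3 CPM in wild-type libraries, and the low gene Ccl17 averaged 1.16 ± 0.17 CPM in mutant and 2.52 ± 0.35 CPM in wild-type libraries. Cx3cl1 was not called, at 220, 218 and 214 CPM in mutant and 235, 222 and 239 CPM in wild-type libraries. Without the 5 libraries that stand apart in the series it was called lower in the mutant, by 0.097 on the log2 scale. The same call was made with the GC trend removed and with the compared libraries alone. With any 1 of the 6 libraries left out it was not called, at edgeR adjusted p of 0.152 to 0.420.

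Cytokines and their receptors were higher in part of each family. Of 12 genes of the IL-1 family 8 were higher and 1 lower, of 19 genes of the IL-6 family and growth factors 12 were higher and none lower, and of 18 TNF ligands and receptors 9 were higher and none lower. Over all tested genes 12.6% were higher and 11.9% lower. In vehicle 4, 6 and 4 members of these lists were higher and 1, 1 and 3 lower, beside 8.69% and 10.1% of all tested genes. The test of the difference between the LPS effects called 1, 1 and 3 members, each with a positive value. The medians were 0.815, 0.453 and 0.204 with LPS, and 0.712, 0.182 and -0.0008 in vehicle. Without mutant replicate 2, 9 of the IL-6 family and growth factors were higher with LPS. Tnf had 127, 123 and 115 CPM in mutant and 50.4, 50.5 and 55.4 CPM in wild-type libraries with LPS. The difference was 2.34-fold (edgeR adjusted p = 1.23e-10) and without overlap, as in 48.8% of all tested genes. Il1r1, the signalling receptor of interleukin 1, was 1.93-fold higher with LPS and also higher in vehicle, while Il18rap, a subunit of the interleukin 18 receptor, was 1.69-fold lower. Csf1, the growth factor of macrophages, had 1694, 1645 and 1711 CPM in mutant and 1241, 1226 and 1213 CPM in wild-type libraries with LPS. Socs3, a brake on cytokine receptors, was 1.99-fold higher in the mutant. Il6 was not called: it had 50.8, 59.3 and 56.4 CPM in mutant and 47.0, 49.5 and 53.5 CPM in wild-type libraries, which overlap (log2 0.15, SE 0.09, edgeR adjusted p = 0.230). Il1b, like Il6 named after its values were seen, was 1.92-fold higher. Macrophage marker RNA was higher in the same libraries, at 210 to 223 CPM in mutant and 100 to 104 CPM in wild type, and its part was not tested.

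Interferon-stimulated genes were higher almost throughout. Of 32 antiviral interferon-stimulated genes 30 were higher in the mutant with LPS and none was lower, with a median of 0.773, and the counts were the same without mutant replicate 2. In vehicle 15 were higher and none lower, with a median of like size, 0.788. None of the 32 was called in the test of the difference between the LPS effects. Over all tested genes 12.6% were higher and 11.9% lower with LPS, and 8.69% and 10.1% in vehicle. Isg15, a ubiquitin-like modifier, had 122, 87.4 and 113 CPM in mutant and 65.7, 62.4 and 59.7 CPM in wild-type libraries with LPS. Oasl1, which binds viral RNA, averaged 28.8 ± 3.0 CPM in mutant and 13.5 ± 0.27 CPM in wild-type libraries, and Mx2, a GTPase that blocks viruses, averaged 26.5 ± 2.7 CPM in mutant and 13.9 ± 0.94 CPM in wild-type libraries. Eif2ak2, the RNA-sensing kinase PKR, was not called, with 146, 134 and 148 CPM in mutant and 125, 123 and 112 CPM in wild-type libraries. It was called higher, at a log2 fold change of 0.29, without the 5 libraries that stand apart, and also with the compared libraries alone. With any 1 of the 6 libraries left out it was not called, at edgeR adjusted p of 0.274 to 0.457. Of 22 interferon regulatory and STAT factors 16 were higher and 2 lower. Irf1 averaged 119 ± 3.6 CPM in mutant and 76.3 ± 2.9 CPM in wild-type libraries, and Stat2 averaged 175 ± 9.2 CPM in mutant and 115 ± 1.1 CPM in wild-type libraries. Ifngr1 was 1.35-fold higher while the partner chain Ifngr2 was 1.09-fold lower, a call that was lost without wild-type replicate 1, at an adjusted p of 0.0688.

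Of 15 guanylate-binding proteins and immunity-related GTPases, which attack vacuoles of microbes, 9 were higher with LPS and none lower. In vehicle 1 was higher and 2 were lower. The test of the difference between the LPS effects called only 1 of the 15, Irgm1. The shares over all tested genes were 12.6% higher and 11.9% lower with LPS, and 8.69% and 10.1% in vehicle. Gbp3 averaged 77.3 ± 4.1 CPM in mutant and 47.9 ± 2.3 CPM in wild-type libraries, and Gbp5 averaged 47.9 ± 8.3 CPM in mutant and 25.8 ± 3.7 CPM in wild-type libraries. Irgm1, whose promoter is shown above, differed from these: with LPS it had 277, 264 and 275 CPM in mutant and 296, 305 and 292 CPM in wild-type libraries, without overlap, and it was not called (log2 -0.13, edgeR adjusted p = 0.328). Without the 5 libraries that stand apart it was called lower (log2 -0.11), as it was with the compared libraries alone. With any 1 of the 6 libraries left out it was not called, at edgeR adjusted p of 0.358 to 0.545. In vehicle Irgm1 had 46.1, 36.6 and 32.5 CPM in mutant and 93.9, 95.4 and 90.8 CPM in wild-type libraries. Of 19 genes of MHC class I presentation, which shows peptides to T cells, 16 were higher with LPS and none lower, with a median of 0.868 and 0.197 in vehicle. H2-K1 had 119, 125 and 118 CPM in mutant and 54.0, 55.6 and 59.5 CPM in wild-type libraries, and H2-T22 had 102, 107 and 107 CPM in mutant and 62.0, 60.0 and 61.2 CPM in wild-type libraries. The H2 genes are near-identical copies in part, so reads could be split between them. The light chain B2m was not called, at 418, 390 and 412 CPM in mutant and 407, 404 and 410 CPM in wild-type libraries. Macrophage marker RNA was also higher in the mutant libraries of these groups, and its part was not tested.

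**Figure D4:**
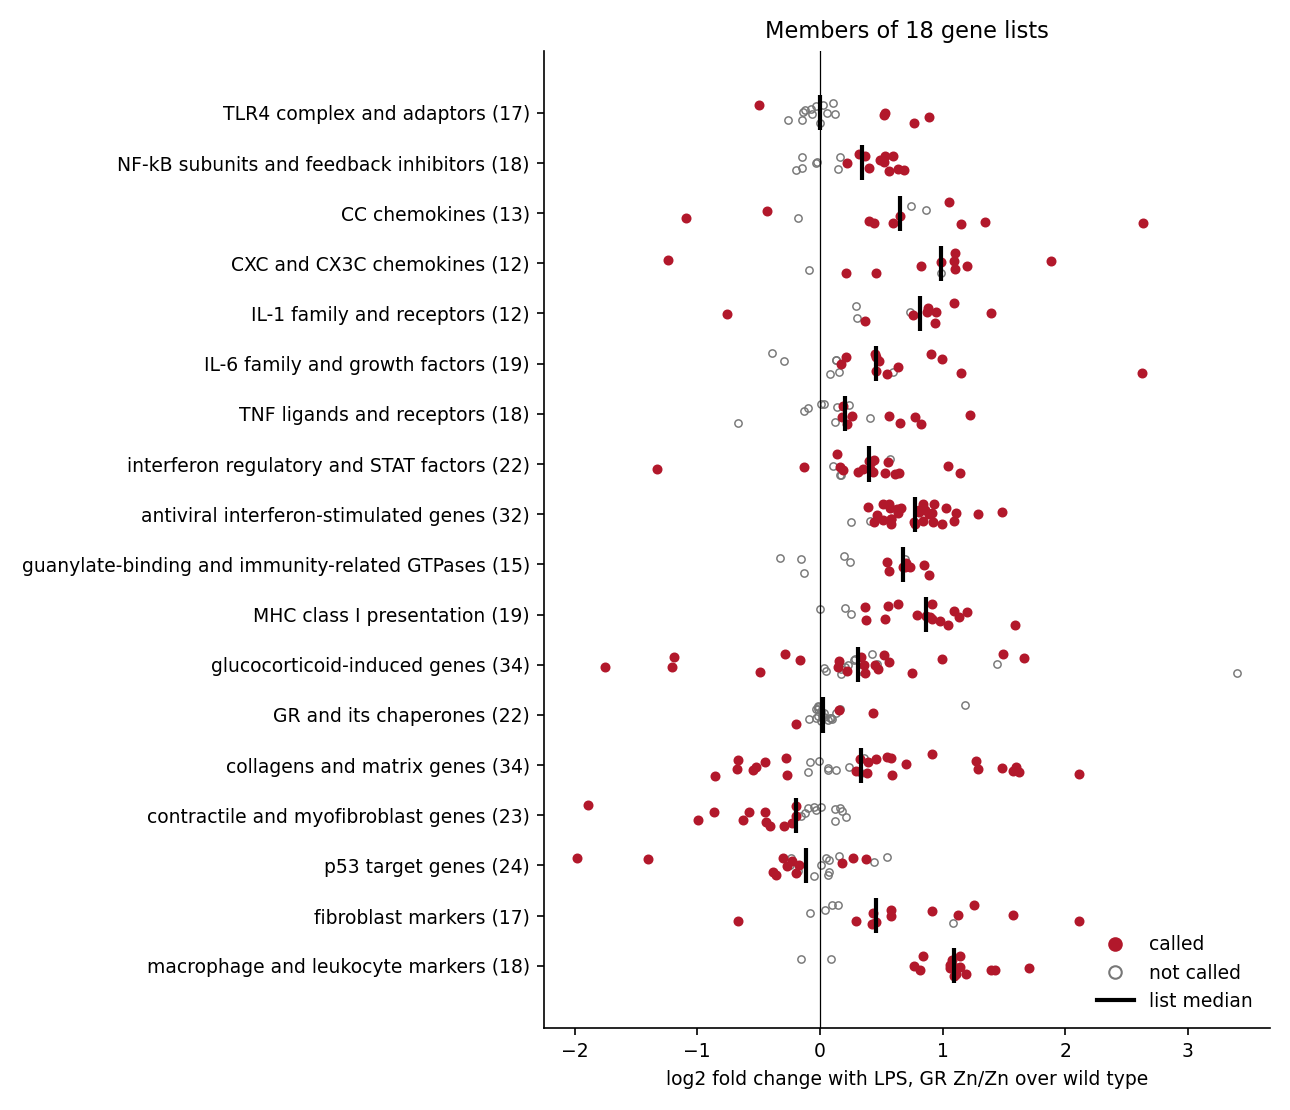
The log2 fold change with LPS, mutant over wild type, of each tested member of 18 gene lists, with the number tested in brackets, filled points for called genes, open points for others and a bar at the list's median. The medians run from -0.192 for contractile genes to 1.09 for macrophage and leukocyte markers.

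The letters of the interferon element stood in the promoters of many of these genes. The GAAA pair was present in 63 of 298 promoter windows (21.1%) of LPS-induced genes that were higher in the mutant, in 12 of 186 windows (6.45%) of LPS-induced genes that were not called, in 3 of 37 windows (8.11%) of those that were lower and in 3.44% of all 32851 windows. The NF-kB letters were present in 5.03%, 4.30%, 10.8% and 1.63% of the same sets, where 10.8% is 4 windows. The letters of the GR element, GNACA and TGTNC with any 3 bases between, were present in 1 window of the LPS-induced genes that were higher (0.336%), 3 of those not called (1.61%), 2 of those that were lower (5.41%) and 0.475% of all windows. By list, 15 of 28 windows of antiviral genes held the GAAA pair (53.6%) and 7 of 20 windows of NF-kB genes held the NF-kB letters. In the promoters shown, the 2 matches of Cxcl1 begin at -89 and -71 from the start site, that of Tnfaip3 at -12 and that of Cxcl10 at -213. For Tnfaip3 this is the start site of the window shown, 1 of 2. The 3 matches of Isg15 begin between -78 and -66, and the 2 of Irgm1 at -30 and -24. A match of letters is a description, and binding was not measured.

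Other parts of the LPS response were mixed. The shares over all tested genes, to be set beside the counts that follow, were 12.6% higher and 11.9% lower. Of 20 matrix proteases and inhibitors 8 were higher and 5 lower. Mmp3, stromelysin, had 115, 119 and 116 CPM in mutant and 57.9, 52.3 and 60.5 CPM in wild-type libraries with LPS, while Mmp2, the gelatinase of resting fibroblasts, had 245, 244 and 246 CPM in mutant and 420, 416 and 433 CPM in wild-type libraries. Of 17 genes of prostaglandin, nitric oxide and itaconate synthesis 7 were higher and 2 lower. Acod1, which makes itaconate, averaged 101 ± 2.3 CPM in mutant and 51.0 ± 2.1 CPM in wild-type libraries, and Ptges, the prostaglandin E synthase, averaged 119 ± 1.1 CPM in mutant and 67.2 ± 6.2 CPM in wild-type libraries. Ptgs2, the cyclooxygenase that feeds Ptges, was not called, with 881, 841 and 967 CPM in mutant and 1019, 1068 and 1012 CPM in wild-type libraries. It was called lower (log2 -0.17) without the 5 libraries that stand apart, and also with the compared libraries alone. With any 1 of the 6 libraries left out it was not called, at edgeR adjusted p of 0.196 to 0.496. Of 19 AP-1 and immediate early factors 7 were higher and 1 lower; Jun averaged 147 ± 16 CPM in mutant and 87.9 ± 0.33 CPM in wild-type libraries. Of 19 complement and acute phase genes 8 were higher and 2 lower, and without mutant replicate 2 5 were higher. Ptx3, a secreted pattern-recognition protein, had 410, 373 and 408 CPM in mutant and 200, 202 and 216 CPM in wild-type libraries.

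Genes that glucocorticoids induce did not lie on 1 side. Of 34 such genes 14 were higher in the mutant with LPS and 6 were lower, beside 12.6% and 11.9% of all tested genes. The median was 0.307, and without mutant replicate 2, 11 were higher and 6 lower. Sgk1, a salt-transport kinase, had 95.4, 99.5 and 101 CPM in mutant and 71.8, 71.7 and 73.5 CPM in wild-type libraries with LPS. Tsc22d3, the inhibitor GILZ, had 19.0, 18.4 and 19.2 CPM in mutant and 14.4, 14.5 and 15.2 CPM in wild-type libraries. For both genes the mutant was higher without overlap, and 48.8% of all tested genes had no overlap in 1 direction or the other. Pdk4, a brake on glucose oxidation, was lower in the mutant, with 6.61, 6.12 and 5.96 CPM against 15.5, 13.4 and 14.4 CPM in wild-type libraries. Cdkn1c, a cell cycle inhibitor, averaged 11.3 ± 0.85 CPM in mutant and 25.7 ± 0.24 CPM in wild-type libraries. Fkbp5, a chaperone of GR, averaged 41.8 ± 1.2 CPM in mutant and 37.7 ± 2.7 CPM in wild-type libraries, with an edgeR adjusted p of 0.0482. That call was lost when any library but wild-type replicate 3 was left out, at adjusted p up to 0.296. With Dex and LPS, in 6 other libraries, Fkbp5 and Tsc22d3 were lower in the mutant by 2.54 and 1.86 on the log2 scale. Of 22 genes of GR and its chaperones 2 were higher and 1 lower, where 24.5% of all tested genes were called either way. None of the 22 was higher without mutant replicate 2. Of 19 cytokine brakes and mRNA decay factors 8 were higher and 1 lower, among them Zfp36l2 and Zfp36l1, which were 1.42-fold and 1.31-fold higher.

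The fibroblast program itself differed with LPS much as it did in vehicle. Of 34 collagens and matrix genes 17 were higher and 8 lower with LPS, and 14 were higher and 8 lower in vehicle. Over all tested genes 12.6% were higher and 11.9% lower with LPS, and 8.69% and 10.1% in vehicle. Col6a1 had 1002, 1025 and 964 CPM in mutant and 413, 394 and 434 CPM in wild-type libraries with LPS, and Col6a2 had 600, 623 and 544 CPM in mutant and 192, 177 and 206 CPM in wild-type libraries. Thbs1 (thrombospondin 1), Loxl2 (a collagen cross-linking enzyme) and Col8a1 were lower, by 1.46-fold, 1.60-fold and 1.81-fold. Fn1 (fibronectin) averaged 8468 ± 168 CPM in mutant and 13465 ± 432 CPM in wild-type libraries. Of 17 fibroblast markers 11 were higher and 1, Fn1, was lower: Pdgfra, a growth factor receptor of fibroblast progenitors, had 137, 129 and 142 CPM in mutant and 30.8, 30.3 and 33.0 CPM in wild-type libraries. Thy1 had 779, 677 and 739 CPM in mutant and 301, 311 and 309 CPM in wild-type libraries. Neither gene's groups overlapped, as was so for 48.8% of all tested genes.

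Many contractile genes were lower: of 23 tested, 12 were lower and none was higher with LPS, and 11 were lower and 1 higher in vehicle. The counts in this paragraph stand beside 12.6% higher and 11.9% lower over all tested genes with LPS. In vehicle these shares were 8.69% and 10.1%. Des (desmin) had 15.7, 16.7 and 14.3 CPM in mutant and 60.8, 56.1 and 57.7 CPM in wild-type libraries, and Ccn2, a target of mechanical signals, was 1.49-fold lower. Myh11 (smooth muscle myosin) had 17.1, 14.7 and 14.8 CPM in mutant and 31.1, 30.7 and 31.1 CPM in wild-type libraries. Of 24 p53 target genes 9 were lower and 3 higher. Pmaip1, the death inducer Noxa, had 50.8, 49.8 and 49.4 CPM in mutant and 201, 200 and 189 CPM in wild-type libraries with LPS (log2 -1.98, SE 0.06, edgeR adjusted p = 8.81e-17). Perp was 2.64-fold lower. Of 28 cell cycle genes 10 were higher and 1 lower with LPS and 14 higher in vehicle; without mutant replicate 2, 6 were higher with LPS. The replication factors Mcm3 and Mcm5 were 1.22-fold and 1.27-fold higher. Of 23 cholesterol synthesis genes 13 were higher and none lower with LPS and 17 were higher in vehicle. Without mutant replicate 2, 9 of them were higher with LPS. Sqle, the squalene epoxidase, had 176, 198 and 171 CPM in mutant and 151, 153 and 154 CPM in wild-type libraries with LPS, and Lss, the next enzyme of the pathway, was 1.21-fold higher.

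Patterning genes and markers of several other tissues differed too. The shares over all tested genes were 12.6% higher and 11.9% lower with LPS, and 8.69% and 10.1% in vehicle. Of 42 Hox and limb patterning genes 13 were lower and 9 higher with LPS, and 11 were lower and 8 higher in vehicle. Hoxa5, Hoxa4 and Hoxa11 were lower by 2.84-fold, 2.89-fold and 1.76-fold, and Hoxd8, Hoxc8 and the limb-girdle factor Emx2 were higher by 1.75-fold, 1.27-fold and 1.45-fold. Skeletal muscle markers summed to 38.3 to 45.6 CPM in mutant and 94.9 to 103 CPM in wild-type libraries with LPS, with 6 of 9 lower and 1 higher, and in vehicle 5 were lower. Cartilage and bone markers summed to 1712 to 1887 CPM in mutant and 2473 to 2486 CPM in wild-type libraries, with 5 of 14 lower and 1 higher, while in vehicle 3 were lower and 3 higher. Epithelial markers summed to 17.3 to 18.3 CPM in mutant and 36.5 to 41.3 CPM in wild-type libraries, with 3 of 5 lower and 1 higher, and 3 lower in vehicle. Endothelial markers summed to 240 to 249 CPM in mutant and 146 to 151 CPM in wild-type libraries with LPS, though 3 of 10 were lower and 2 higher. In vehicle their sum was 109 to 116 CPM in mutant and 91.8 to 96.9 CPM in wild-type libraries, with 2 lower and 2 higher. The summed level was thus higher with LPS than in vehicle in both genotypes. Of 11 nerve and glia markers 4 were higher and 3 lower with LPS, and 3 were higher and 4 lower in vehicle. Adult liver markers summed to 27.2 to 154 CPM in mutant and 2.45 to 39.4 CPM in wild-type libraries, with the highest sum in mutant replicate 2. Of 17 tested liver markers 1 was called higher with LPS, none was called without that library, and none was called in vehicle by the edgeR test. Of 5 sex-linked genes 1 was lower, and none without mutant replicate 2. The part of these tissues in the other results was not tested.

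The largest differences, among protein-coding genes with non-overlapping libraries and at least 1 CPM in the higher group, included genes that were nearly silent in 1 genotype. All 24 except Bdkrb1, Slc28a2 and Col9a1 were also called in the same direction in vehicle. Lgr5, a stem cell receptor that amplifies Wnt signals, had 10.3, 9.03 and 9.95 CPM in mutant and 0.366, 0.512 and 0.381 CPM in wild-type libraries with LPS, a log2 fold change of 4.50 with LPS and 3.72 in vehicle. Prdm1, the transcription repressor Blimp-1, averaged 5.18 ± 0.69 CPM in mutant and 0.523 ± 0.17 CPM in wild-type libraries. Ccn5, a matricellular protein, had 107, 112 and 108 CPM in mutant and 12.6, 14.3 and 13.3 CPM in wild-type libraries. Bdkrb1, the inducible bradykinin receptor, averaged 5.83 ± 0.43 CPM in mutant and 0.674 ± 0.33 CPM in wild-type libraries with LPS. The other genes among the 12 largest were Bcl11b, Kcnf1, Tfap2b, Slc28a2, Ccl11, Dpt, U90926 and Upk3b, between 5.28-fold and 8.56-fold higher. On the lower side, the tight junction gene Cldn4 had 0.203, 0.118 and 0.311 CPM in mutant and 7.26, 6.32 and 5.98 CPM in wild-type libraries with LPS, a log2 fold change of -5.07 with LPS and -5.32 in vehicle. Rgs5, a pericyte regulator of G proteins, had 5.03, 4.78 and 5.03 CPM in mutant and 58.8, 59.0 and 60.6 CPM in wild-type libraries. Kcna5, a potassium channel, averaged 0.0687 ± 0.086 CPM in mutant and 1.63 ± 0.21 CPM in wild-type libraries. Folh1, Ackr4, Vmn2r79, Dusp27, Lrrc3b, Col9a1, Arhgap36, Ralyl and Akap5 were lower by 5.99-fold to 23.8-fold. Folh1, Kcna5 and Ackr4 had 0 reads in mutant replicate 3, so their fold changes depend on the prior count of the fit. Without mutant replicate 2 their log2 fold changes were -5.45 for Folh1, -5.89 for Kcna5 and -5.30 for Ackr4, against -4.57, -4.10 and -3.69 with it. Col9a1 was not called without the 5 libraries that stand apart.

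The first 3 RNAs per length were the same in both genotypes with LPS. In CPM per kilobase of exon, mt-Co1 came first with 3999 ± 234 in mutant and 3384 ± 365 in wild type, then Eef1a1, a translation factor, with 3131 ± 61.3 in mutant and 3108 ± 24.3 in wild type. Lgals1, a galectin, followed with 2403 ± 44.3 in mutant and 2341 ± 25.9 in wild type. Ccl2 was the 7th in the mutant, at 1694 ± 112, and the 9th in wild type, at 1284 ± 7.10 CPM per kilobase, so that 1 chemokine stood among the 10 most abundant RNAs of both. Col1a1 was among the first 10 in the mutant and Thbs1 and Sparc in wild type. The called genes were spread over the genome: between 20.5% and 27.9% of tested genes were called on chromosomes 1 to 19 and X. The split by direction was less even on some chromosomes. On X 39 genes were higher and 95 lower, and on chromosome 19 91 were higher and 35 lower, beside 1918 and 1813 in all. Within 10 Mb of Nr3c1, 28 of 157 tested genes were called, 16 higher and 12 lower (17.8%).

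How many genes passed a test of whether their genotype difference with LPS was another one than in vehicle depended on the fit. The test of the change itself, mutant LPS effect minus wild-type LPS effect, called 82 of 15221 genes (0.539%), 53 with a positive value (0.348%) and 29 with a negative one (0.191%). The count lay between 34 and 53 when mutant vehicle replicate 1, mutant LPS replicate 1 or 2, wild-type LPS replicate 1 or 2 or any wild-type vehicle replicate was left out. It was 140 by the DESeq2 Wald test, 163 with the GC trend removed, 146 with the compared libraries alone and 405 without the 5 libraries that stand apart. Of the 594 LPS-induced genes 29 were called with a positive and 5 with a negative value. The smallest p was that of Cxcl1, a neutrophil attractant, named here for that p. With LPS, Cxcl1 had 355, 355 and 359 CPM in mutant and 298, 303 and 321 CPM in wild-type libraries, while in vehicle it had 6.09, 5.90 and 5.74 CPM in mutant and 1.71, 1.31 and 1.69 CPM in wild-type libraries. The gap was 1.16-fold with LPS and 3.77-fold in vehicle. The difference of the LPS effects was -1.70 on the log2 scale (SE 0.16, edgeR adjusted p = 7.00e-06). The small gap of Cxcl1 with LPS was not called when mutant replicate 1, 2 or 3 or wild-type replicate 1 or 2 was left out, with adjusted p up to 0.137. Cxcl5, Ccl7 and Ccl2 also had a negative value and were higher in the mutant in both treatments. Tnfaip3 and Irgm1 had positive values, 1.10 and 1.14: both were lower in the mutant in vehicle, and with LPS Tnfaip3 was slightly higher and Irgm1 was not called. Sod2, the mitochondrial superoxide dismutase, was not called in vehicle and had 178, 164 and 168 CPM in mutant and 101, 91.6 and 101 CPM in wild-type libraries with LPS (0.74, SE 0.08, edgeR adjusted p = 1.87e-05). Of 19 MHC class I genes 6 were called with a positive value, and of 18 NF-kB genes 4 were called with a positive and 1 with a negative value. With each of the 12 libraries left out in turn, 3 to 5 of the MHC class I genes were called with a positive value, 3 of the 6 in every one. Of the NF-kB genes 2 to 4 were then called with a positive value, and 2 of the 5 calls were made in every one. The comparison shares its libraries with the genotype comparisons above.

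**Figure D5:**
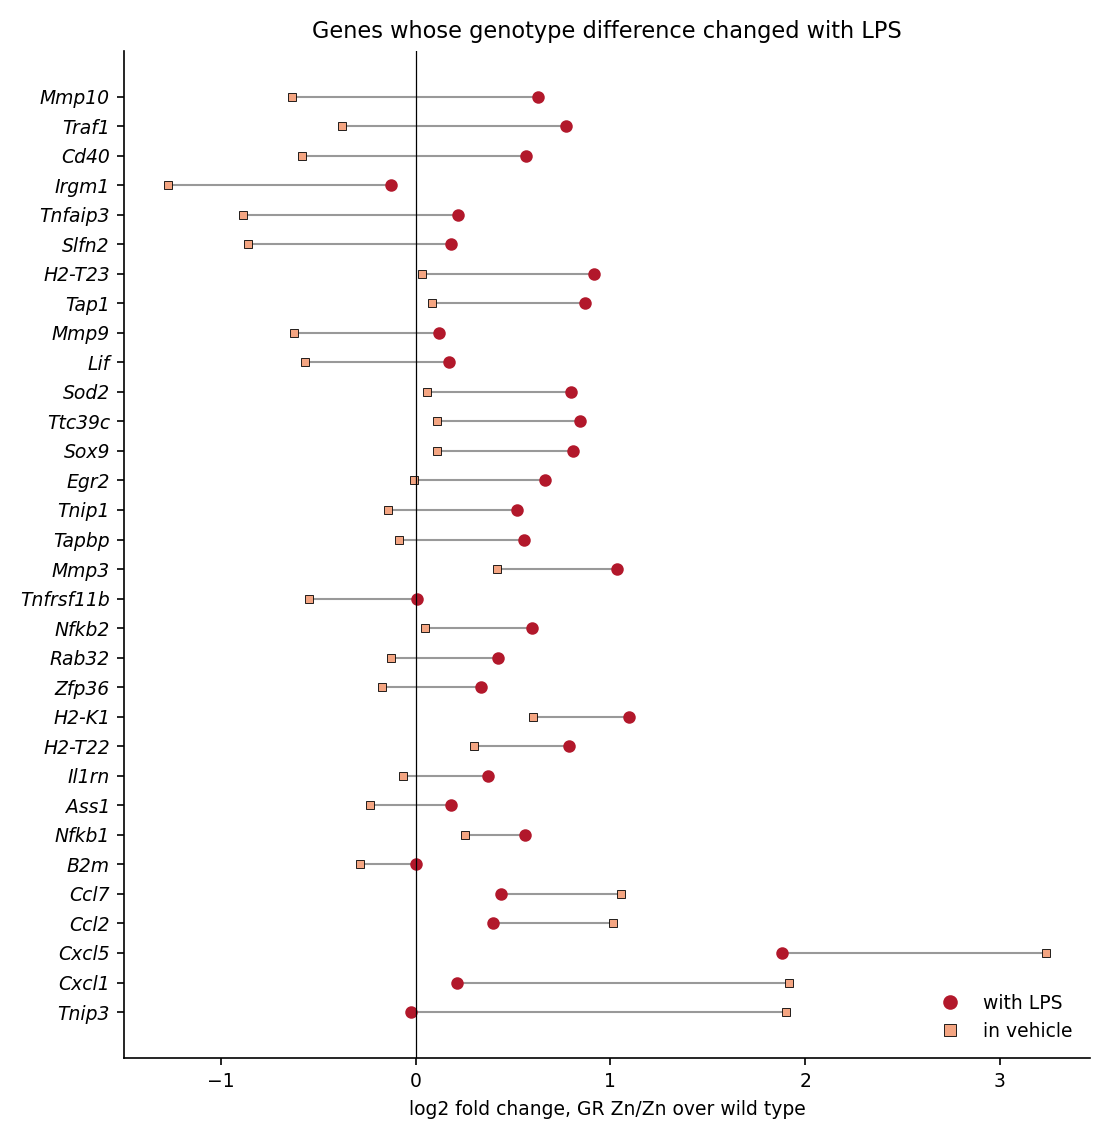
The log2 fold change of mutant over wild type with LPS (circles) and in vehicle (squares) for 32 genes called in the test of the change: the 10 with the smallest p and the other members of the gene lists. Tnfaip3 stands at 0.22 with LPS and -0.88 in vehicle, and Cxcl1 at 0.21 with LPS and 1.92 in vehicle.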

How the data were processed

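Per the labels, polyA RNA was made into stranded TruSeq libraries. STAR 2.4.2/2.4.2a and mm10 are named in the submitters' processing notes. The values are raw counts per gene as deposited by the authors, unstranded and per strand; column 4 was used, and the other 96 columns of per-sample values were not. Reads assigned to no gene, 12.4% to 15.7% of each library, stayed out of library sizes. The 24 libraries held 18.9 to 58.0 M counted reads, and intervals and floors cover counting error only.

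The counts were filtered with filterByExpr, which left 15221 of 27088 genes with a read, scaled by TMM and fitted with edgeR 4.0.16 (quasi-likelihood test, robust, 1 coefficient per group, all 24 libraries; R 4.3.3, limma 3.58.1). Calls are at a Benjamini-Hochberg adjusted p below 0.05. Levels are TMM-scaled CPM, mean ± SD over 3 libraries, and standard errors are the log2 fold change over the square root of F. Genes named are the 12 largest called differences each way with non-overlapping libraries, at least 1 CPM in the higher group and the same call without mutant replicate 2; the 3 markers and Nr3c1; in each of 33 gene lists up to 3 called members each way by p and the 2 most abundant not called; and the 10 highest levels per length. Any other gene was chosen after its values were seen: Il6, Tlr4, Il1b, Nfkbia, Isg15, Tsc22d3, Alb, and those named for the test of the LPS effects. The members and lists were chosen with earlier results of these data known. Coordinates are GENCODE vM21 on GRCm38, and promoters RefSeq on GRCm38.p6, which matched 243 of 325 LPS-induced genes that were higher.

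On simulated data with 50 changed genes per fold among 15087, the genotype test called 34% at 1.25-fold, 72% at 1.5-fold, 92% at 2-fold and 100% at 4-fold, and 4 of 14887 unchanged genes. Far fewer genes were changed there than were called in the data. The simulated counts held no shift shared by many genes of a library and no embryo or culture effect. These shares therefore do not give the error rate of the calls in the data. Alternatives were DESeq2 1.42.0, DESeq2 size factors, no low-count filter, the compared libraries alone, unstranded counts, removal of a GC trend, a replicate term, each library left out, and 5 libraries that stand apart left out. The 5 were mutant LPS replicate 2, mutant vehicle replicate 1 and, with Dex and LPS, mutant replicate 2 and wild-type replicates 1 and 3. Wild-type replicate 2 with Dex and LPS was then the only library of its group, and all groups share an estimate of spread. Added after the data were seen were the LPS-induced class drawn from the wild-type Dex libraries alone and the calls per list of the test of LPS effects with each library left out.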

Additional observations from a re-analysis of the deposited data

Results flagged for a closer look

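The LPS effect differed between mutant and wild-type cells in 82 genes by edgeR's test of the difference itself, and the members of the gene lists among them, with the 10 smallest p-values, are given here as the mutant LPS effect minus the wild-type LPS effect on the log2 scale.

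Among NF-kB regulators and TNF family genes, the values were 1.10 for Tnfaip3, 0.66 for Tnip1, 0.55 for Nfkb2, 0.31 for Nfkb1, -1.93 for Tnip3, 1.15 for Cd40, 1.15 for Traf1 and 0.56 for Tnfrsf11b. Tnip3, an A20 partner of low level, was higher in the mutant in vehicle and near equal with LPS. Among chemokines and cytokines they were -1.70 for Cxcl1, -1.35 for Cxcl5, -0.61 for Ccl7, -0.62 for Ccl2, 0.74 for Lif and 0.44 for Il1rn. All 4 chemokines were higher in the mutant in both treatments, with the smaller gap under LPS.

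In antigen presentation the values were 0.88 for H2-T23, 0.49 for H2-T22, 0.49 for H2-K1, 0.64 for Tapbp, 0.78 for Tap1 and 0.29 for B2m. Of 12 fits with 1 library left out, the calls of B2m and H2-K1 were lost in 11 and that of Tap1 in 5. Interferon-inducible Irgm1 had 1.14 and Slfn2 1.04. Among proteases they were 0.74 for Mmp9, 1.26 for Mmp10 and 0.62 for Mmp3. The others were 0.74 for Sod2, 0.42 for Ass1, 0.51 for the mRNA decay factor Zfp36, 0.68 for Egr2, 0.70 for Sox9, 0.55 for Rab32 and 0.73 for Ttc39c. In the same 12 fits the call was lost in 10 for Sox9, 9 for Mmp3, 7 for Nfkb1 and 6 each for Egr2, Tnip1 and Tnip3. It was lost in 4 for Traf1, 3 each for Ass1 and Mmp10 and 1 each for Il1rn and Mmp9. Without wild-type vehicle replicate 3 the value of Tnip3 was -2.77.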

How the results depend on the processing

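The count of genes that differed between the genotypes with LPS, 3731, was 3179 without the low-count filter, 5534 with the compared libraries alone and 5501 without the 5 libraries that stand apart, and 2870 to 3296 with each library left out in turn. In vehicle, 2861 genes became 4620 without the 5 libraries, and 2238 to 2601 with each library left out. The 82 genes whose LPS effect differed became 140 by the DESeq2 Wald test, 163 with the GC trend removed, 146 with the compared libraries alone, 405 without the 5 libraries, and 34 to 79 with each library left out. The cause of these moves was not tested. Deviations of same-numbered libraries had correlations of 0.0998, 0.0872 and 0.282, not all above 0.1, so the numbers were not taken as pairs; mutant replicate 2 correlated best with wild-type replicate 1. With a replicate block the counts were 3609 with LPS, 2762 in vehicle and 76 for the LPS effect.

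Of 146 named genes 129 kept their direction and call with LPS in every alternative; 11 lost a call and 5 gained one in at least 1 alternative. B2m, at a difference near 0, changed sign under 6 settings: 0.0019 by the DESeq2 Wald test, 0.0024 with DESeq2 size factors, 0.053 with the GC trend removed, 0.0050 without the filter, 0.024 without mutant LPS replicate 2 and 0.025 without the 5 libraries. With each library left out it lay between -0.028 and 0.024. Of 32 genes named for the LPS effect 16 kept their call in every alternative and 16 lost it in at least 1. DESeq2 size factors moved the median log2 fold change of all genes by 0.00246. In genes near the floor of 3 reads, 0.0683 to 0.159 CPM, depth limits what can be detected.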
